A study of Mus musculus with 6 samples.

Results

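Liver RNA of fasted mice was examined for 33 genes of cholesterol synthesis, sterol sensing and sterol transport, out of 45777 genes in the deposited table. The genes were chosen by name and role, with earlier results of these data known, and all 33 were found. They comprise 8 enzymes of the mevalonate pathway, 12 enzymes of the sterol pathway, 4 genes that control the transcription factor SREBP2, 1 gene of lipoprotein receptor turnover and 8 genes of sterol transport and storage. The study asked how loss of the kinase PAK4 in hepatocytes changes the liver transcriptome in fasting. The control group (WT) was 3 *Pak4* flox/flox mice and the knockout group (LKO) was 3 Alb-Cre; *Pak4* flox/flox mice, so both groups carried the floxed allele and only LKO mice carried Cre. All 6 were C57BL/6 males, 8 weeks old, fasted for 24 h, with 1 library per mouse. The paper describes the knockout as specific to hepatocytes, and *Pak4* was not measured here by cell type. No fed group and no group with Cre alone was analysed here.

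Cells make cholesterol from acetyl-CoA. The mevalonate pathway yields isoprenoid units that are joined to farnesyl diphosphate, and squalene formed from it is cyclized to lanosterol and trimmed to cholesterol in the endoplasmic reticulum. SREBP2 switches these enzymes on when sterols are low: its escort SCAP carries it to the Golgi for cleavage, and INSIG1 and INSIG2 hold the pair back when sterols are high. The liver is a main site of this pathway, and its synthesis of cholesterol is known to fall in fasting and to rise after feeding.

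The total read count per mouse was 45934632 to 55205564 in WT mice, against 53936281 to 59576437 in LKO mice. *Pak4*, the floxed gene, was at 3.59, 3.21 and 4.1 CPM (counts scaled to a common library size by TMM) in WT mice 1, 2 and 3, against 1.93, 1.49 and 3.22 CPM in LKO mice 1, 2 and 3. LKO mouse 3 lay just above the lowest WT mouse, so the groups overlapped. *Pak4* had a log2 fold change (LKO over WT) of −0.71, with a standard error of 0.31 and an adjusted p of 0.10 in the edgeR quasi-likelihood fit, where p-values were adjusted by Benjamini-Hochberg across the tested genes. It was −1.08 without LKO mouse 3 (adjusted p = 0.015, edgeR). Without WT mouse 1, 2 or 3, or without LKO mouse 1, it did not pass (adjusted p = 0.13 to 0.24, edgeR). Nor did it pass by edgeR exactTest (adjusted p = 0.077) or DESeq2 (adjusted p = 0.079). With total counts in place of TMM it was −1.54 (adjusted p = 0.0056, edgeR), where 51.4% of all genes tested were called lower. The composition of the libraries differed with genotype. TMM factors ranged from 1.28 to 1.43 in WT mice, against 0.639 to 0.816 in LKO mice, and the 10 genes with the most counts held 16.2 to 17.3% of the total in WT mice, against 30.6 to 36.3% in LKO mice. The small RNA 7SL held 4.55 to 5.24% of the counts in WT mice, against 11.2 to 15.8% in LKO mice, and 7SK held 0.499 to 0.606%, against 2.33 to 2.63%. The slope of log2 CPM on log2 gene length was 0.073 to 0.097 in WT mice, against −0.13 to −0.037 in LKO mice. TMM put the median log2 fold change of all 18636 genes tested at −0.04, total counts at −0.90 and the deposited TPM, on the log2(TPM + 1) scale, at −0.79. A log2 fold change below is after TMM, which places it relative to the bulk of the genes, unless another scaling is named. With gene length offsets in the fit, the median log2 fold change of the enzymes was −2.21. What part the other differences between libraries have in the results below was not tested.

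Cholesterol synthesis genes were lower in LKO than in WT liver along nearly the whole pathway. Of the 20 enzymes, 19 fell (adjusted p under 0.05) and 0 rose, by edgeR, while 20.5% of all genes tested were called lower and 19.6% higher. At an unadjusted p under 0.05, 0 enzymes rose as well. Their median log2 fold change was −2.18, and that of all genes tested was −0.04. Among all 33 genes, 24 fell, 2 rose and 7 did not pass the test, so 26 of 33 were called, where 40.1% of all genes tested were called in either direction. In 26 genes the CPM of the genotypes did not overlap, 24 lower and 2 higher, where 54% of all genes tested did not overlap and 27.9% were lower without overlap. All 33 genes passed the filter on low counts. The 13 genes outside the enzymes divided: 5 fell, 2 rose, and 6 did not pass, with a median log2 fold change of −0.08. With total counts in place of TMM, 30 of the 33 genes were called lower and 2 higher by edgeR, against 51.4% and 6.26% of all genes. By limma on the log2(TPM + 1) scale, 31 of the 33 genes were called lower and 1 higher, where 71.5% of all genes were called lower.

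**Figure D1:**
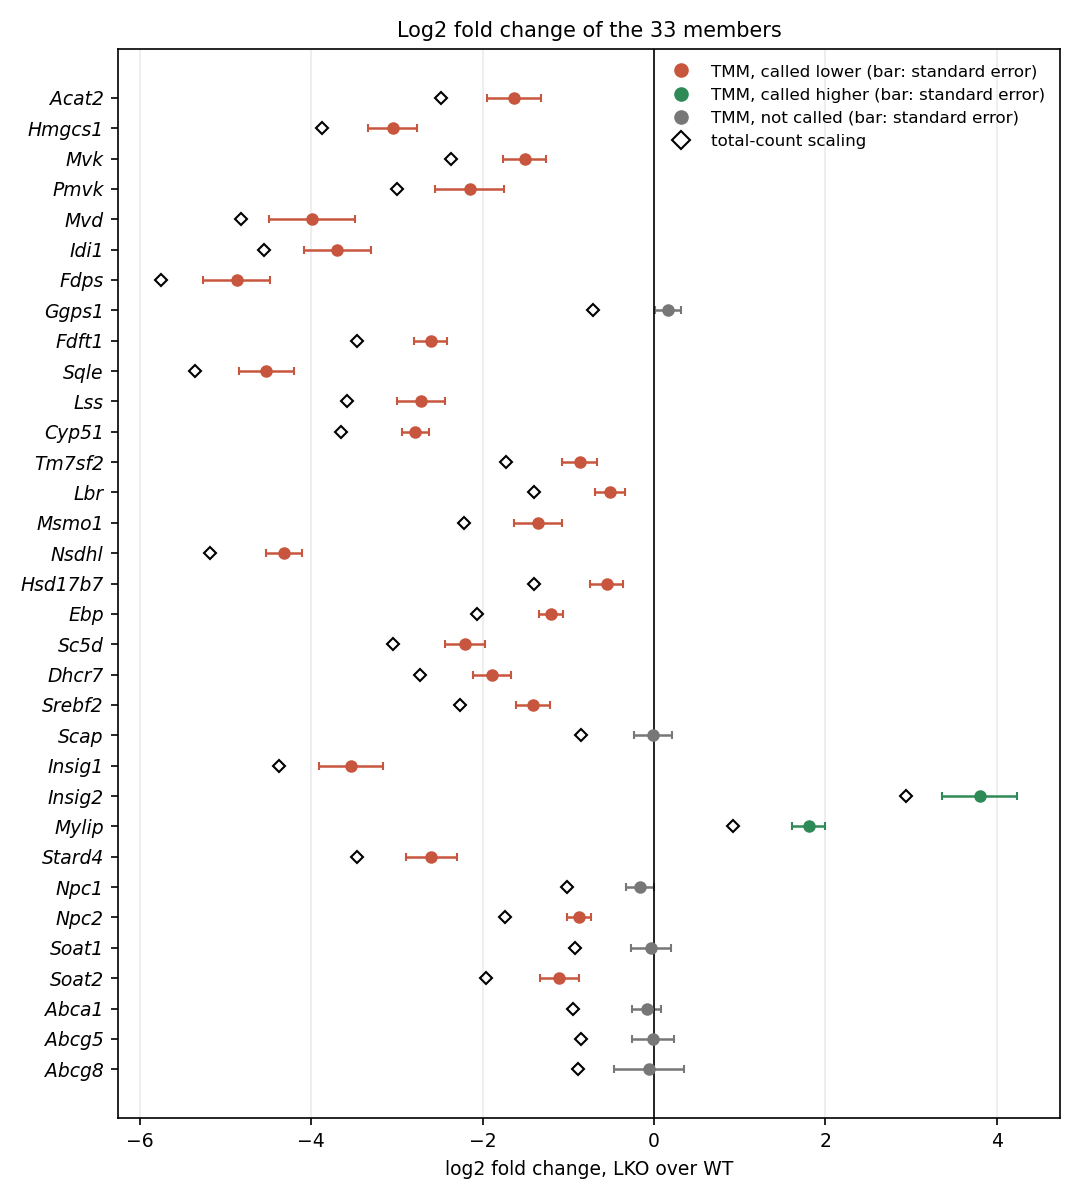
Log2 fold change of LKO over WT for the 33 genes (horizontal axis), with the enzymes in pathway order from the top and then the control and transport genes. Filled points are the values after TMM with a bar of 1 standard error, colored by call, and open diamonds are the values with total counts. All enzymes but *Ggps1* lie left of 0 under both scalings, *Insig2* and *Mylip* lie right of 0 under both, and 5 of the 8 transport and storage genes lie near 0 after TMM and between −1.01 and −0.85 with total counts.

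The sequences before the start sites were examined because so many of these genes moved together. SREBP2 binds the sterol regulatory element (SRE) and usually acts with the factor NF-Y, which binds CCAAT boxes. RefSeq windows of 300 bases on GRCm38.p6, the assembly that mm10 represents, from 250 bases before the start site to 50 after it, were found for 27 of the 33 genes. The 6 genes without a window, *Fdps*, *Fdft1*, *Sqle*, *Stard4*, *Npc1* and *Soat2*, were not searched. A CCAAT box, searched as CCAAT on both strands, was present in a window of 24 of these 27 genes, namely in 18 of the 19 that fell, 2 of the 2 that rose and 4 of the 6 that did not pass the test. It was present in 41.1% of the 27025 genes with a window (37.4% of windows) and in 42.6% of the 12571 tested genes with a window. The SRE consensus, searched as TCACNCCAC on both strands, was present in *Hmgcs1* alone, where it starts 137 bases before the start site, and in 1.44% of all genes (1.24% of windows). The longer SRE-1 form (the consensus with A before it and C at its open position), the palindrome TCACGTGA and DR4, the LXR element (a direct repeat of AGGTCA spaced by 4 bases), were present in 0 of the 27 genes and in 0.0913%, 0.974% and 0.0152% of all windows. A match is a run of letters, not a site of binding, and elements outside the windows or with other letters were not searched.

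Of these promoters, 6 are shown, 250 bases before the start site, 5′ to 3′ on the strand of the gene, with CCAAT boxes (CCAAT or ATTGG) and the SRE consensus in capitals. *Hmgcs1* carries the only SRE match, *Mvk* and *Msmo1* carry several CCAAT boxes, *Nsdhl* had one of the deepest falls, and *Insig1* and *Insig2* are related genes that moved in opposite directions. For *Insig2* the first of 3 annotated windows is shown, and the other two hold no match.
*Hmgcs1*, chr13:119690101-119690350, plus strand: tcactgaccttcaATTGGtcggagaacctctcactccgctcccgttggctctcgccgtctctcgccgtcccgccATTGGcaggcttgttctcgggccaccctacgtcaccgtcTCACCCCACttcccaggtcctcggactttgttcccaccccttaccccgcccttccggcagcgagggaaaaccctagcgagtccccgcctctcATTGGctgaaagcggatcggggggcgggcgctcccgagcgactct
*Mvk*, chr5:114444019-114444268, plus strand: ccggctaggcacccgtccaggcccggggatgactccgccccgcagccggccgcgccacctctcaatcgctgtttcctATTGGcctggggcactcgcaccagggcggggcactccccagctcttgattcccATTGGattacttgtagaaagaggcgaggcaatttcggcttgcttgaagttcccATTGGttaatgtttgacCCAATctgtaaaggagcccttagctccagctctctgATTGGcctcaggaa
*Nsdhl*, chrX:72918271-72918520, plus strand: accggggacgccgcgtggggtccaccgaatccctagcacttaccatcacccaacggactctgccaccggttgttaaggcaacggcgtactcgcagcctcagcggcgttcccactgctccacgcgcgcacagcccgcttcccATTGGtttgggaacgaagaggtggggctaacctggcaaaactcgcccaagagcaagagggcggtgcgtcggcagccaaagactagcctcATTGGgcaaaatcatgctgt
*Msmo1*, chr8:64733579-64733828, minus strand: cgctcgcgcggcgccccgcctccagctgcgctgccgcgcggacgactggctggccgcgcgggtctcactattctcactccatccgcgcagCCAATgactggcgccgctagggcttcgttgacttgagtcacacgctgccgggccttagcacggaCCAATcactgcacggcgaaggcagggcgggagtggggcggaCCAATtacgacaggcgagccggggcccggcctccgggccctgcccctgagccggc
*Insig1*, chr5:28071162-28071411, plus strand: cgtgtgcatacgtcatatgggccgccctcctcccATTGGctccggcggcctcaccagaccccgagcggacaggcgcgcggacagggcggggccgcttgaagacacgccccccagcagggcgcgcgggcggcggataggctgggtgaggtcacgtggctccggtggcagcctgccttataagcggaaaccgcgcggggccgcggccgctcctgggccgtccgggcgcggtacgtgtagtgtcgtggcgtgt
*Insig2*, chr1:121332590-121332839, minus strand: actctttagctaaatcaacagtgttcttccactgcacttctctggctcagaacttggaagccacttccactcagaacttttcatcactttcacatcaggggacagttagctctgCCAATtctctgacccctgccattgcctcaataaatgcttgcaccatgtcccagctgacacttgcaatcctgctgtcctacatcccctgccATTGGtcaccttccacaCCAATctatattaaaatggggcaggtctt
The *Hmgcs1* stretch holds the SRE match between CCAAT boxes, with 3 boxes in the 250 bases. In *Mvk*, 4 boxes on the same strand stand exactly 53 bases apart, and a box on the other strand lies among them. *Insig1* has 1 box, 216 bases before the start site, whereas *Insig2* has 3 boxes and is the only one of these 6 genes that rose.

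**Figure D2:**
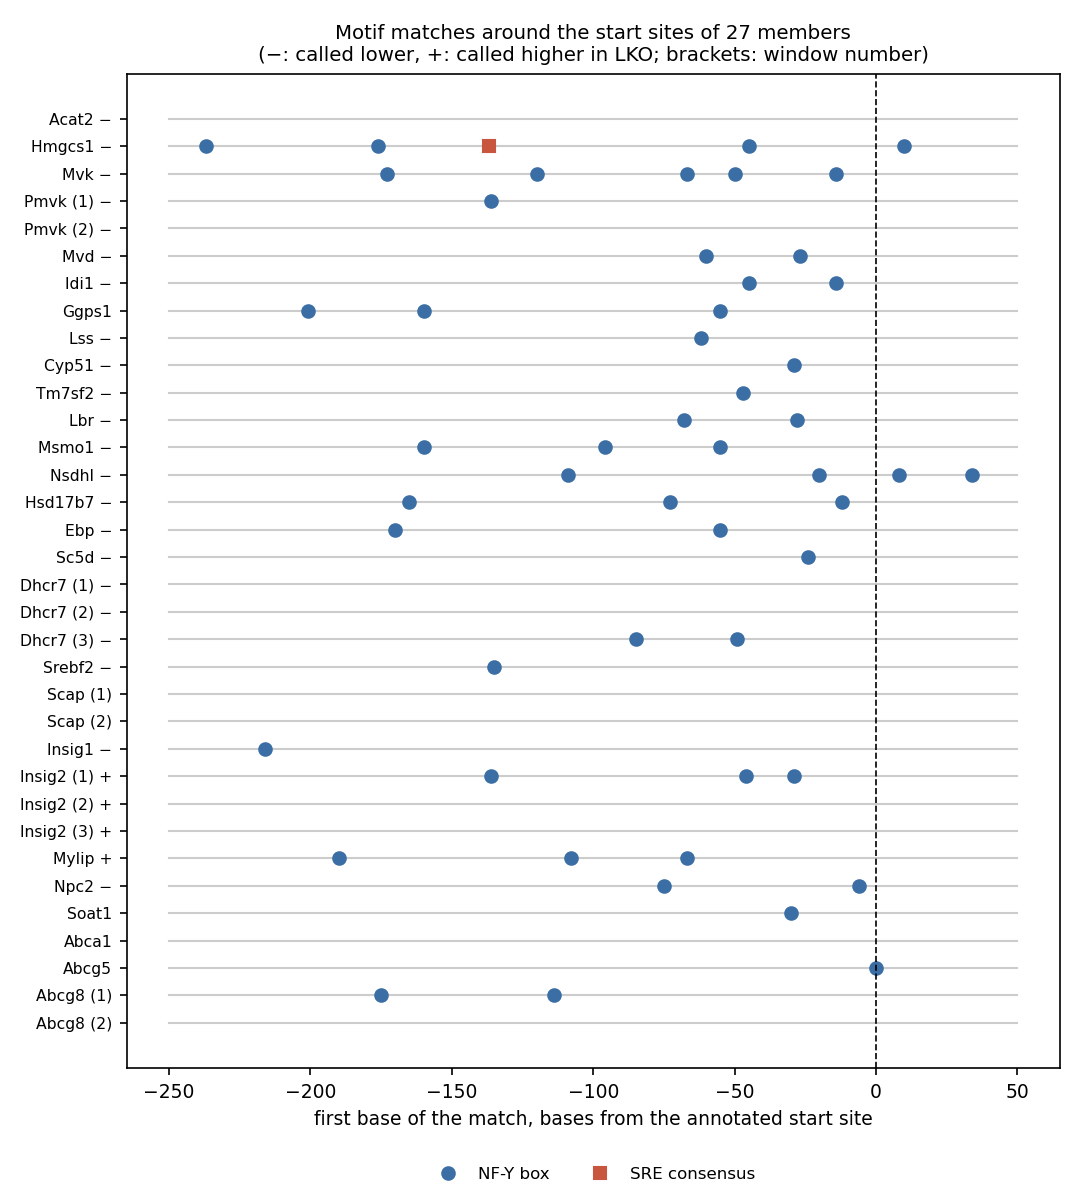
Matches to the CCAAT box (NF-Y box, circles) and to the SRE consensus (square) in the promoter windows of 27 genes, by distance in bases from the annotated start site (horizontal axis, dashed line at the start site), 1 line per window. The single SRE match is that of *Hmgcs1*.

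The mevalonate enzymes fell in 7 of 8 genes, with a median log2 fold change of −2.60. *Acat2*, the cytosolic thiolase that makes acetoacetyl-CoA, was at 79.5, 54.6 and 69.9 CPM in WT against 31.7, 21.6 and 12.5 CPM in LKO mice. Every LKO mouse was lower than every WT mouse, a 3.10-fold fall (log2 fold change −1.63, standard error 0.32, adjusted p = 0.0043, edgeR). Reads may be shared with the similar gene *Acat3*, which had 1381 to 7474 counts, so the value of *Acat2* is uncertain. *Hmgcs1*, Entrez gene 208715 (chr13:119690351-119708260 on GRCm38.p6, as are the positions below), encodes the cytosolic synthase that adds the next acetyl unit. It was at 299.6, 173 and 257 CPM in WT against 39.6, 23.1 and 25.7 CPM in LKO mice. Its fall was 8.26-fold, without overlap (log2 fold change −3.05, standard error 0.29, adjusted p = 3.1e-04, edgeR).

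The enzymes that phosphorylate and decarboxylate mevalonate fell by unequal amounts. *Mvk*, mevalonate kinase, was at 5.55, 5.07 and 7.27 CPM in WT against 2.45, 2.24 and 1.6 CPM in LKO mice, a 2.85-fold fall (adjusted p = 0.0022, edgeR). *Pmvk*, phosphomevalonate kinase, was at 46.1, 12.9 and 24.6 CPM in WT against 6.77, 6.16 and 5.88 CPM in LKO mice, a 4.44-fold fall (adjusted p = 0.0038, edgeR). WT mice spread widely for *Pmvk* while LKO mice were nearly equal, and the groups did not overlap. *Mvd*, the decarboxylase, was at 9.82, 3.04 and 9.57 CPM in WT against 0.613, 0.344 and 0.432 CPM in LKO mice, a 15.9-fold fall (adjusted p = 6.8e-04, edgeR). With 12 to 27 counts per LKO mouse, the level of *Mvd* in LKO liver rests on few reads, and its annotation overlaps that of the lncRNA gene *Gm51557*.

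The next enzymes lead from isopentenyl diphosphate to farnesyl diphosphate, where the sterol and prenyl branches part. *Idi1*, the isomerase, was at 86.5, 85.1 and 115 CPM in WT against 10.3, 8.52 and 3.31 CPM in LKO mice, a 12.9-fold fall (log2 fold change −3.69, standard error 0.39, adjusted p = 4.0e-04, edgeR). *Fdps*, farnesyl diphosphate synthase, Entrez gene 110196 (chr3:89093588-89101967), was at 237, 92.2 and 158 CPM in WT against 4.36, 7.2 and 5.15 CPM in LKO mice. This was a 29.2-fold fall, the deepest of the 33 genes (log2 fold change −4.87, standard error 0.39, adjusted p = 2.2e-04, edgeR). *Ggps1*, which adds an isoprene unit to farnesyl diphosphate for protein prenylation and so leads away from sterols, was the one enzyme that did not pass the test. It was at 18.0, 16.96 and 14.7 CPM in WT against 16.6, 19.5 and 19.5 CPM in LKO mice, with overlap (log2 fold change 0.16, standard error 0.15, adjusted p = 0.42, edgeR), and its sign turned with total counts (−0.71, adjusted p = 0.0091, edgeR). The ratio of *Fdps* to *Ggps1* TPM, which compares both genes per length within a mouse and does not depend on library scaling, was 47.4, 19.4 and 40.9 in WT against 1.02, 1.42 and 0.974 in LKO mice. *Fdps* thus went from a level far above that of *Ggps1* to about the same level.

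**Figure D3:**
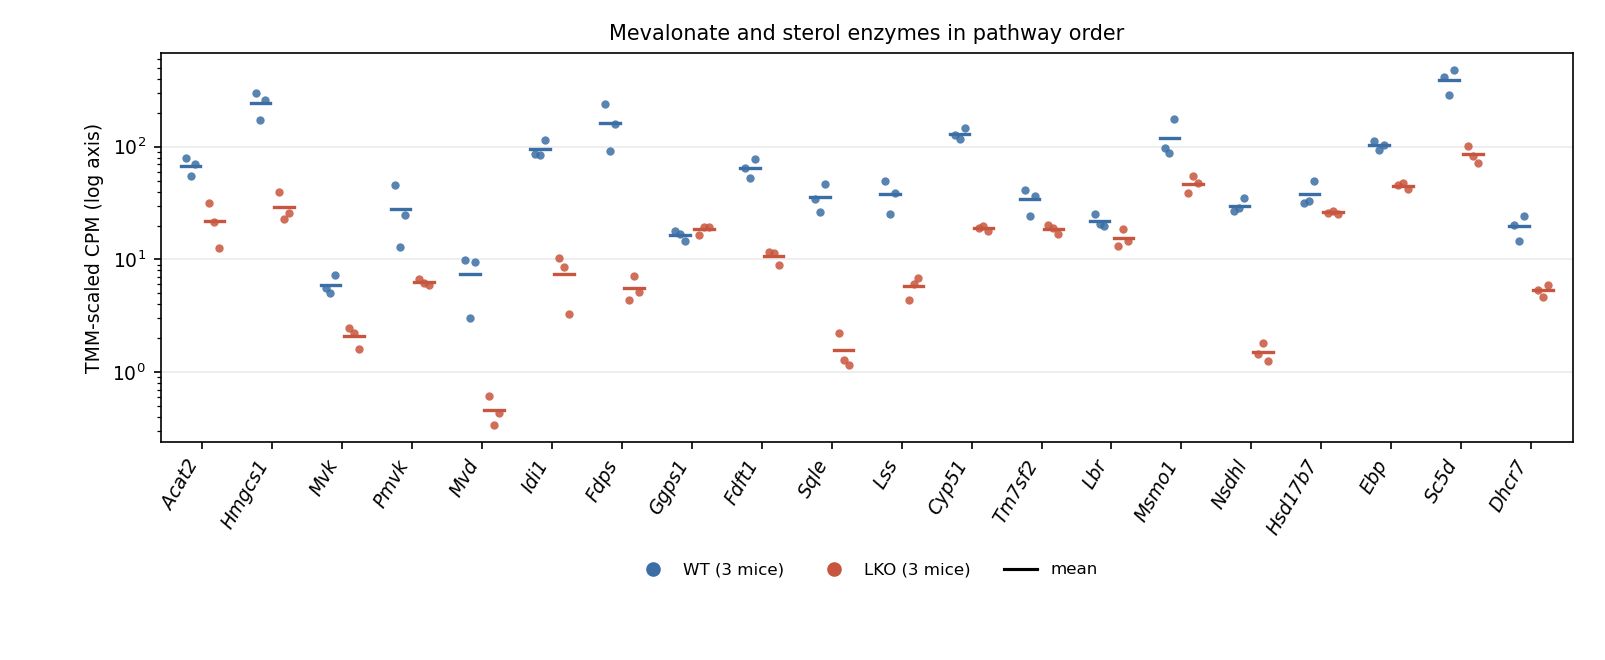
TMM-scaled CPM (vertical log axis) of the 20 enzymes in pathway order from left to right, 1 point per mouse (WT blue, LKO red, 3 mice each) with a line at the mean. In 19 enzymes all LKO points lie below all WT points, and *Ggps1* is the exception.

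The sterol enzymes fell in 12 of 12 genes, with a median log2 fold change of −2.05. *Fdft1*, squalene synthase, commits farnesyl diphosphate to sterols. It was at 64.3, 53.3 and 77.7 CPM in WT against 11.8, 11.4 and 8.93 CPM in LKO mice, a 6.09-fold fall (adjusted p = 2.1e-04, edgeR). Its annotation overlaps that of *Ctsb* by 774 bases, and whether the counting used strand is not stated. *Sqle*, squalene epoxidase, Entrez gene 20775 (chr15:59315092-59331193), was at 34.6, 26.6 and 46.8 CPM in WT against 2.23, 1.29 and 1.17 CPM in LKO mice. This 23.0-fold fall came second among the 33 genes (log2 fold change −4.52, standard error 0.32, adjusted p = 2.1e-04, edgeR). *Lss*, lanosterol synthase, was at 49.9, 25.1 and 38.9 CPM in WT against 4.38, 6.02 and 6.90 CPM in LKO mice, a 6.58-fold fall (adjusted p = 3.8e-04, edgeR). *Cyp51*, the lanosterol demethylase, was at 126, 116 and 147 CPM in WT against 19.1, 19.7 and 17.7 CPM in LKO mice, a 6.89-fold fall (adjusted p = 1.0e-04, edgeR).

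The sterol C14 reductases, which share an activity, fell least together with *Hsd17b7*. *Tm7sf2* was at 41.2, 24.5 and 36.4 CPM in WT against 20.4, 18.9 and 16.7 CPM in LKO mice (log2 fold change −0.87, standard error 0.21, adjusted p = 0.011, edgeR). *Lbr*, which is also a protein of the inner nuclear membrane, was at 25.3, 20.7 and 19.9 CPM in WT against 13.2, 18.5 and 14.5 CPM in LKO mice (log2 fold change −0.51, standard error 0.18, adjusted p = 0.0499, edgeR). *Hsd17b7*, a reductase of C4 demethylation, was at 31.97, 32.98 and 49.98 CPM in WT against 25.9, 27.1 and 25.6 CPM in LKO mice (log2 fold change −0.55, standard error 0.19, adjusted p = 0.0499, edgeR). *Lbr* and *Hsd17b7* stand at the threshold, and each passed under 4 of 18 other settings, always with a negative sign. Both were without overlap between the genotypes.

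The other enzymes of C4 demethylation and of the final steps fell more. *Msmo1*, the methyl oxidase, was at 96.4, 87.2 and 178 CPM in WT against 39.1, 54.5 and 47.9 CPM in LKO mice, a 2.55-fold fall (adjusted p = 0.0061, edgeR). *Nsdhl*, the dehydrogenase of the same complex, Entrez gene 18194 (chrX:72918521-72958528), was at 26.8, 28.4 and 34.9 CPM in WT against 1.45, 1.84 and 1.25 CPM in LKO mice. This 19.9-fold fall had the smallest adjusted p of the 33 genes (log2 fold change −4.31, standard error 0.21, adjusted p = 7.4e-05, edgeR). Thus *Msmo1*, *Nsdhl* and *Hsd17b7*, which encode enzymes of the same C4 demethylation, fell by unequal amounts. *Ebp*, the sterol isomerase, was at 112, 94.4 and 104 CPM in WT against 45.5, 47.8 and 42.1 CPM in LKO mice, a 2.29-fold fall (adjusted p = 5.3e-04, edgeR). *Sc5d*, the C5 desaturase and the enzyme of highest CPM, was at 419, 287 and 474 CPM in WT against 103, 82.3 and 71.2 CPM in LKO mice, a 4.61-fold fall (adjusted p = 4.2e-04, edgeR). *Dhcr7*, a terminal reductase, was at 20.2, 14.5 and 24.3 CPM in WT against 5.38, 4.65 and 5.90 CPM in LKO mice, a 3.70-fold fall (adjusted p = 5.3e-04, edgeR).

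On the TPM scale, which compares genes per length, *Fdps* and *Sc5d* were the most abundant enzymes in WT liver at 245 ± 108 and 242 ± 42.2 TPM (SD, n = 3), and their order differed between mice. *Mvk*, *Ggps1* and *Mvd* were the least abundant, at 6.72 ± 0.902, 6.94 ± 1.26 and 8.15 ± 3.995 TPM, within their spread of each other. In LKO liver *Mvd* was the least abundant in each mouse, at 0.169 ± 0.0706 TPM, and the median over the 20 enzymes went from 39.4 TPM in WT to 2.89 TPM in LKO mice. The summed TPM of the 20 enzymes was 1501, 1034 and 1389 in WT mice against 119, 86.4 and 103 in LKO mice. All 20 enzymes, *Ggps1* included, and 31 of the 33 genes were lower without overlap in TPM, as were 74.9% of all genes tested. The mice of 1 genotype also differed across much of the pathway. WT mouse 2 had the lowest CPM of the WT mice in 16 of 20 enzymes and the highest in 0, and the median deviation of its enzymes from the WT mean was −0.34 on the log2 scale. Among LKO mice, mouse 3 was lowest in 12 of 20 enzymes. The same ranks were not counted over all genes tested, so whether they are particular to the enzymes was not tested. Without WT mouse 2, the median log2 fold change of the enzymes was −2.47, and without WT mouse 1 it was −2.01.

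The 4 genes that control SREBP2 did not move as a group. *Srebf2*, which encodes SREBP2, Entrez gene 20788 (chr15:82147269-82205379), was at 8.89, 10.1 and 12.1 CPM in WT against 4.50, 3.73 and 3.44 CPM in LKO mice. It fell 2.67-fold without overlap (log2 fold change −1.41, standard error 0.20, adjusted p = 0.0011, edgeR). *Scap*, the escort, was at 26.2, 22.0 and 35.5 CPM in WT against 25.4, 23.5 and 34.1 CPM in LKO mice, with overlap (log2 fold change −0.01, standard error 0.22, adjusted p = 0.97, edgeR). The sign of *Scap* turned under other scalings, and with total counts it was called lower (−0.85, adjusted p = 0.014, edgeR).

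The *Insig* genes moved in opposite directions. *Insig1*, Entrez gene 231070 (chr5:28071412-28078662), is itself a target of SREBP2. It was at 334, 166 and 416 CPM in WT against 20.3, 24.1 and 34.6 CPM in LKO mice, an 11.6-fold fall (log2 fold change −3.54, standard error 0.37, adjusted p = 3.8e-04, edgeR). *Insig2*, Entrez gene 72999 (chr1:121304353-121332662), has a liver transcript known to rise in fasting and to be repressed by insulin. It was at 182, 107 and 63.3 CPM in WT against 1359.6, 1293 and 2262 CPM in LKO mice, a 13.9-fold rise (log2 fold change 3.80, standard error 0.43, adjusted p = 4.9e-04, edgeR). Each LKO mouse was far above each WT mouse, and the rise also passed with total counts (2.94) and on the log2(TPM + 1) scale (2.36). The ratio of *Insig2* to *Insig1* TPM was 0.539, 0.683 and 0.158 in WT mice against 70.3, 56.9 and 68.7 in LKO mice. *Insig1* was therefore the more abundant of the pair in each WT mouse and *Insig2* in each LKO mouse. Transcripts of *Insig2* were not resolved in the gene table.

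**Figure D4:**
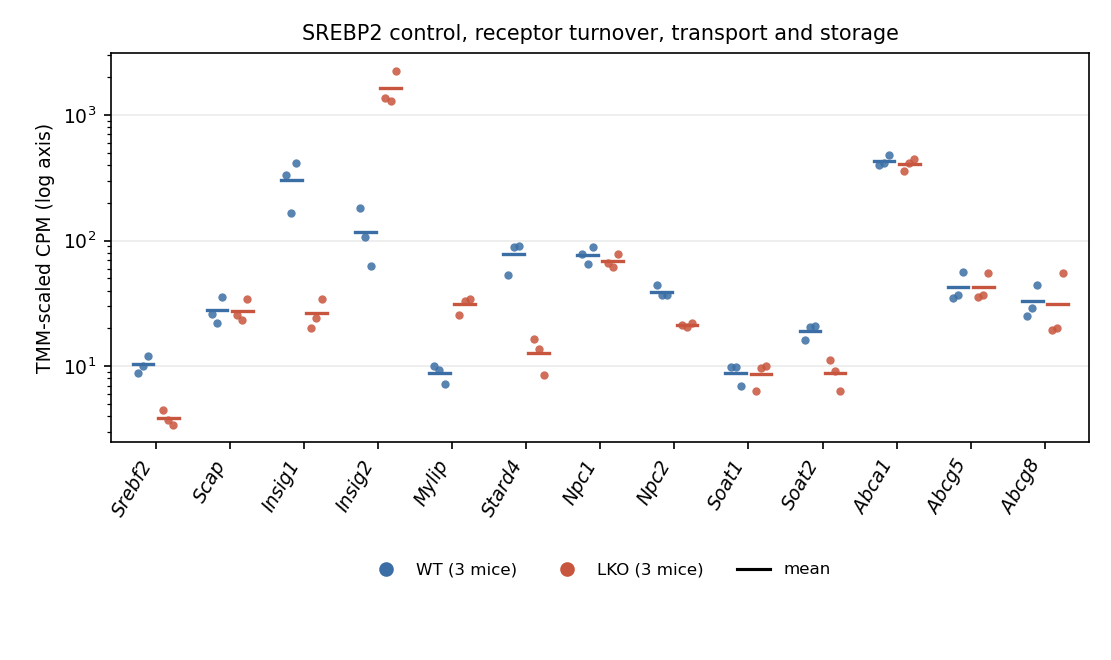
TMM-scaled CPM (vertical log axis) of the 13 genes outside the enzymes, 1 point per mouse (WT blue, LKO red, 3 mice each) with a line at the mean. *Insig1* and *Stard4* lie lower and *Insig2* and *Mylip* higher in LKO mice, while *Abca1*, *Abcg5* and *Abcg8* overlap.

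*Mylip*, Entrez gene 218203 (chr13:45389742-45411940), encodes a ubiquitin ligase that sends lipoprotein receptors to degradation and is a known target of the sterol sensor LXR. It was at 10.05, 9.40 and 7.23 CPM in WT against 25.4, 33.4 and 34.6 CPM in LKO mice, a 3.50-fold rise without overlap (log2 fold change 1.81, standard error 0.19, adjusted p = 3.9e-04, edgeR). The rise passed with total counts (0.93, adjusted p = 0.0053, edgeR) but not on the log2(TPM + 1) scale (0.23, adjusted p = 0.35, limma), where its levels of 5.89 ± 1.23 TPM in WT against 7.06 ± 1.53 TPM in LKO mice (SD, n = 3) differed by less than their spread.

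Transport and storage genes fell in 3 of 8 cases, with 0 rises by edgeR, also at an unadjusted p under 0.05. Of all genes tested, 20.5% fell and 19.6% rose. *Stard4*, a cytosolic sterol carrier and a known SREBP2 target, was at 53.5, 89.6 and 90.2 CPM in WT against 16.4, 13.6 and 8.56 CPM in LKO mice, a 6.05-fold fall (log2 fold change −2.60, standard error 0.29, adjusted p = 4.8e-04, edgeR). *Npc2*, the soluble protein that binds cholesterol in lysosomes, was at 44.0, 36.7 and 36.7 CPM in WT against 21.4, 20.4 and 22.1 CPM in LKO mice (log2 fold change −0.88, standard error 0.14, adjusted p = 0.0018, edgeR). *Npc1*, its membrane partner, was at 77.7, 65.5 and 88.2 CPM in WT against 66.6, 62.2 and 77.8 CPM in LKO mice, with overlap (log2 fold change −0.16, standard error 0.16, adjusted p = 0.46, edgeR). The annotation of *Npc1* shares 8982 bases with that of *Rmc1*. The ratio of *Npc1* to *Npc2* TPM was 1.11, 1.12 and 1.51 in WT against 1.95, 1.91 and 2.21 in LKO mice, without overlap.

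Cholesterol is esterified for storage by the acyltransferases *Soat1* and *Soat2*, of which *Soat2* is the hepatocyte form. *Soat2* was at 16.3, 20.4 and 20.8 CPM in WT against 11.3, 9.12 and 6.31 CPM in LKO mice, a 2.15-fold fall (log2 fold change −1.10, standard error 0.23, adjusted p = 0.0060, edgeR). *Soat1* was at 9.78, 9.93 and 6.95 CPM in WT against 6.38, 9.63 and 10.03 CPM in LKO mice (log2 fold change −0.03, standard error 0.23, adjusted p = 0.92, edgeR). The efflux genes overlapped between genotypes. *Abca1*, which loads cholesterol onto apolipoprotein A-I and is an LXR target as is *Mylip*, was at 403, 412 and 484 CPM in WT against 361, 417 and 449 CPM in LKO mice (log2 fold change −0.08, standard error 0.17, adjusted p = 0.73, edgeR). *Abcg5* and *Abcg8* encode the partners of the transporter that secretes sterols into bile, and their annotations overlap by 6710 bases on chromosome 17. *Abcg5* was at 35.2, 37.1 and 56.4 CPM in WT against 35.4, 36.8 and 55.8 CPM in LKO mice (log2 fold change −0.01, standard error 0.24, adjusted p = 0.98, edgeR). *Abcg8* was at 24.99, 29.2 and 44.3 CPM in WT against 19.6, 20.01 and 54.8 CPM in LKO mice (log2 fold change −0.06, standard error 0.41, adjusted p = 0.92, edgeR). LKO mouse 3 was the highest LKO mouse for both, and without it the log2 fold change of *Abcg8* was −0.73 (adjusted p = 0.051, edgeR). With total counts, *Npc1*, *Soat1*, *Abca1* and *Abcg5* were called lower (−1.01 to −0.85), where the median of all genes was −0.90, and *Abcg8* was not (adjusted p = 0.10, edgeR).

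Beyond these 33 genes, 70 other genes of cholesterol handling were compared, of which 66 were tested. By edgeR 23 fell and 11 rose, where 20.5% of all genes tested fell and 19.6% rose. The number of rises changed with scaling and with the mice used. With total counts 49 were called lower and 1 higher, where 51.4% and 6.26% of all genes were. The number of rises was 5, 6 and 7 without WT mice 1, 2 and 3. It was 10, 7 and 8 without LKO mice 1, 2 and 3. Among all genes the rises went from 3661 to between 2757 and 3436 when 1 mouse was left out. Among 11 genes of SREBP processing and sterol sensing, 5 fell and 1 rose. *Srebf1*, which encodes the lipogenic factor SREBP1, was at 98.9, 69.8 and 186 CPM in WT against 11.5, 10.9 and 8.89 CPM in LKO mice, an 11.3-fold fall (adjusted p = 3.7e-04, edgeR). *Mbtps1*, the protease that makes the first cut in SREBP, fell 2.40-fold (44.9 ± 2.74 to 18.6 ± 2.21 CPM, SD, n = 3, adjusted p = 5.1e-04, edgeR), whereas *Mbtps2*, the protease of the second cut, was at 9.60 ± 0.652 and 11.6 ± 2.61 CPM with a log2 fold change of 0.27 (n = 3, adjusted p = 0.31, edgeR). *Erlin2*, which acts in sterol-regulated protein degradation in the endoplasmic reticulum, fell 2.72-fold (adjusted p = 3.1e-04, edgeR).

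Genes that supply the pathway with substrate and electrons moved in both directions. *Aacs*, which makes acetoacetyl-CoA from acetoacetate in the cytosol, was at 143, 74.8 and 113 CPM in WT against 2.61, 6.97 and 5.69 CPM in LKO mice, a 21.8-fold fall (log2 fold change −4.44, standard error 0.40, adjusted p = 2.9e-04, edgeR). The rest of the 12 isoprenoid branch genes tested moved less, and in all 4 of the 12 fell and 3 rose. Of 8 electron donors and partners of sterol enzymes, 5 fell and 2 rose, where 20.5% of all genes tested fell and 19.6% rose. *Cyb5r3*, the reductase of cytochrome b5, was at 184, 133 and 186 CPM in WT against 24.3, 21.8 and 17.8 CPM in LKO mice, a 7.87-fold fall (adjusted p = 1.8e-04, edgeR). *Cyb5b*, a cytochrome b5 of the outer mitochondrial membrane, fell 7.59-fold (394 ± 31.3 to 51.9 ± 10.2 CPM, SD, n = 3, adjusted p = 1.8e-04, edgeR). *Cyb5a*, the microsomal cytochrome b5, was at 497, 414 and 500.1 CPM in WT against 1436, 1912 and 1172 CPM in LKO mice, a 3.20-fold rise (adjusted p = 0.0011, edgeR), which was 0.11 on the log2(TPM + 1) scale (adjusted p = 0.54, limma). *Por*, which passes electrons to the microsomal P450s, CYP51 among them, and to squalene epoxidase, was at 73.2, 63.4 and 101 CPM in WT against 134, 211 and 360 CPM in LKO mice (log2 fold change 1.57, adjusted p = 0.0082, edgeR). Its rise did not pass with total counts (0.72, adjusted p = 0.097, edgeR), and its sign turned on the log2(TPM + 1) scale (−0.06, limma). *Tmem97*, a membrane protein that binds NPC1, fell 2.64-fold (adjusted p = 0.0012, edgeR).

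Of 11 genes of uptake and lysosomes, 3 fell and 2 rose, where 20.5% of all genes tested fell and 19.6% rose. *Sort1*, the sorting receptor sortilin, fell 2.77-fold (19.4 ± 3.87 to 7.0 ± 0.952 CPM, SD, n = 3, adjusted p = 8.9e-04, edgeR). Among 12 sterol transfer genes 3 fell and 3 rose, and *Osbpl5* fell 4.03-fold (6.51 ± 0.127 to 1.61 ± 0.243 CPM, SD, n = 3, adjusted p = 3.7e-04, edgeR). Of 12 genes of LXR, efflux and oxysterols, 3 fell and 0 rose by edgeR, also at an unadjusted p under 0.05. *Nr1h3*, which encodes LXRα, was at 62.5 ± 2.45 CPM in WT against 70.4 ± 12.9 CPM in LKO mice (SD, n = 3, log2 fold change 0.17, adjusted p = 0.44, edgeR). *Nr1h2*, which encodes LXRβ, was at 7.53 ± 1.48 and 7.47 ± 1.01 CPM (SD, n = 3, log2 fold change −0.01, adjusted p = 0.97, edgeR). Both were called lower with total counts (−0.71 and −0.87), where the median of all genes was −0.90.

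**Figure D5:**
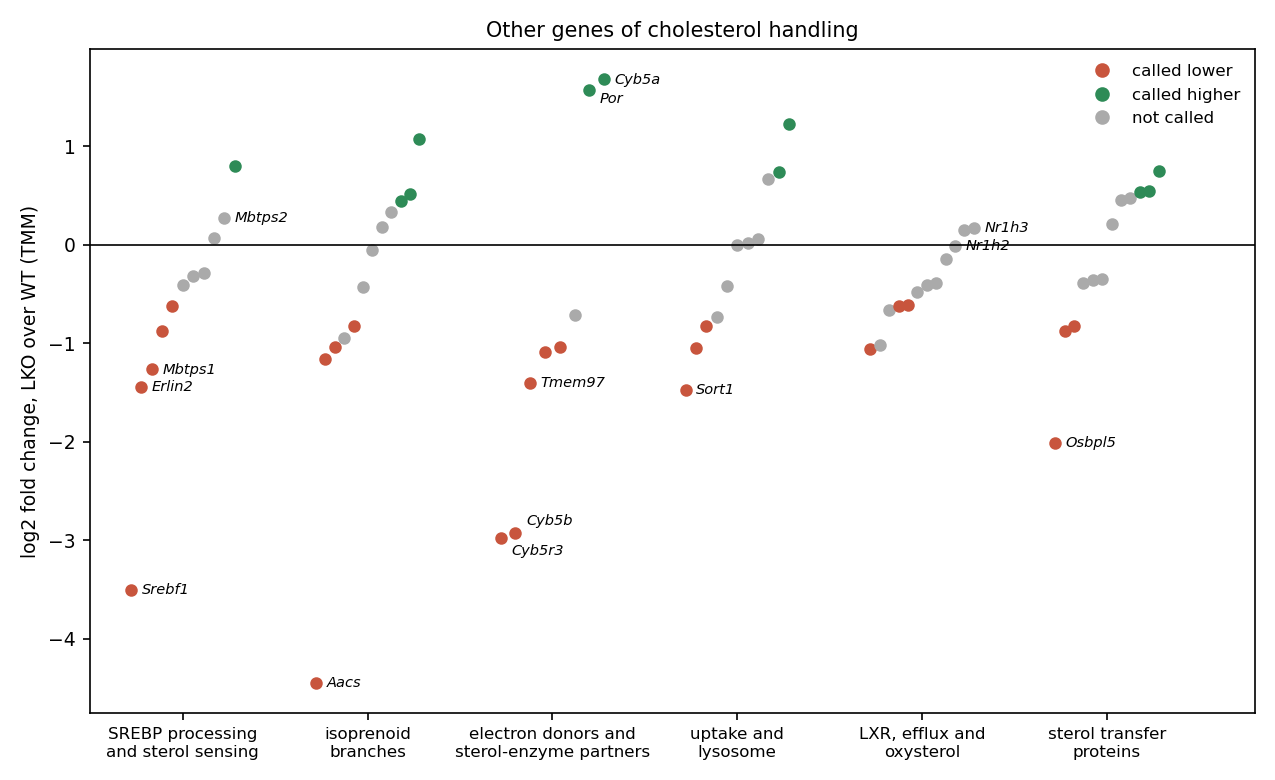
Log2 fold change of LKO over WT after TMM (vertical axis) for the 66 tested genes of the 6 lists of other cholesterol genes, sorted within each list and colored by call, with the genes described in the text named. *Aacs* (−4.44), *Srebf1* (−3.50), *Cyb5r3* (−2.98) and *Cyb5b* (−2.92) lie lowest, and *Cyb5a* (1.68) and *Por* (1.57) highest.

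Livers were taken whole, so fewer cells of a type and less RNA per cell cannot be told apart. The 10 hepatocyte markers had a summed TPM of 37999.8 to 43568 in WT and 24971 to 39563 in LKO mice, with overlap, and 3 of them rose and 4 fell after TMM. The largest part of that sum was *Alb*, at 17740 to 22603 TPM in WT and 16099 to 29766 TPM in LKO mice. *Alb*, *Apoa1* and *Cps1* overlapped in TPM, whereas *Ttr*, *Tf*, *Apob*, *Hnf4a*, *Serpinc1*, *Ambp* and *Hp* were lower in LKO mice without overlap. Marker sums of most other cell types were lower in LKO mice on the TPM scale. On that scale 74.9% of all genes tested were lower without overlap. The sums were 392 to 642 TPM in WT and 229.8 to 346 TPM in LKO mice for 10 Kupffer cell markers, 159.8 to 211 and 103 to 157 TPM for 8 endothelial markers, 41.0 to 67.6 and 6.93 to 10.9 TPM for 6 cholangiocyte markers and 25.7 to 42.5 and 6.56 to 11.1 TPM for 8 lymphocyte markers, none of which overlapped, and 162 to 217 and 185 to 252 TPM for 8 stellate markers, which did. Most of the cholangiocyte sum was *Spp1*, at 39.5 to 66.1 TPM in WT and 6.22 to 10.1 TPM in LKO mice. After TMM, 4 Kupffer, 6 endothelial and 3 stellate markers rose, 1 stellate and 1 cholangiocyte marker fell and 0 lymphocyte markers were called. Of all genes tested, 19.6% rose and 20.5% fell. Median log2 fold changes after TMM were 0.82 for Kupffer, 0.73 for endothelial, 0.53 for stellate, 0.08 for cholangiocyte and −0.47 for lymphocyte markers. The cholangiocyte marker that fell was *Spp1* (−1.09), while *Krt19*, *Epcam* and *Sox9* were not called (0.999, 0.048 and 0.11). *Krt7* and *Cldn7* were not tested. No marker was at 0 in all 6 mice, and *Cd3d*, a T cell marker, was at 0 in the 3 LKO mice. Their part in the results above was not tested.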

How the data were processed

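Liver RNA of 3 WT and 3 LKO mice was sequenced by the authors. Gene abundances were estimated by the authors with StringTie on mm10. The submitters' processing notes name HISAT2 2.1.0, Bowtie2 2.3.4.1 and StringTie 2.1.3b. The paper describes a stranded total RNA kit after removal of rRNA, and the labels a stranded mRNA kit. Whether counting used strand is not given in the sources used here. The deposited read counts are not normalized. The deposited FPKM, which the authors normalized for length and depth, served only for relative gene length. The deposited TPM are also per length, with an equal sum in each mouse.

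Following the published methods, a gene was tested if at most 1 of the 6 mice had a zero count, which kept 18636 of 45777 genes. Counts were scaled by TMM and compared by genotype with the two-sided quasi-likelihood test of edgeR 4.0.16 (R 4.3.3), adjusted by Benjamini-Hochberg across the tested genes, at a threshold of 0.05. The standard error was derived from the log2 fold change and its F statistic. The libraries held 45934632 to 59576437 counts per mouse, and single genes far fewer, such as 12 to 27 per LKO mouse for *Mvd*. The p-values set the genotype difference against the variation between mice, 3 per genotype, with the dispersion estimated using all tested genes. The methods name exactTest, which was an alternative here. Other alternatives were DESeq2 1.42.0, 3 other scalings, other filters, protein-coding genes, a block, gene length offsets (lowess, span 0.3), limma 3.58.1 on log2(TPM + 1) with a pseudocount of 1, a 2-fold threshold and leaving out each mouse. On simulated counts for 18141 genes, of which 18120 were tested, the test recovered 179 of 200 genes changed by 2 on the log2 scale and called 4 others. Apart from those 200 genes, the simulated genotypes had the same composition and gene length trend, with a common dispersion for all genes. The differences between the real libraries were not simulated.

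The genes and lists were chosen with earlier results of these data known. Named were all 33 genes, *Pak4*, and from the other lists *Srebf1*, *Mbtps1*, *Mbtps2*, *Nr1h3*, *Nr1h2* and the 10 genes of largest log2 fold change that passed the test without overlap and averaged at least 1 CPM. Some genes of the pathway are not reported here. Replicate numbers came from the labels, and same-numbered mice are different animals.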

Additional observations from a re-analysis of the deposited data

How the results depend on the processing

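Of the 26 genes called, 23 were called in each of 18 alternatives other than the 2-fold threshold, and the exceptions were *Lbr*, *Hsd17b7* and *Mylip*. At 2-fold, *Tm7sf2*, *Lbr*, *Hsd17b7* and *Npc2* lost their call. The enzymes called lower were 17 to 18 of 20 when 1 mouse was left out. Among all genes, limma on log2(TPM + 1) called 13775 (13322 lower, 453 higher), total counts called 9575 lower and 1167 higher, and the 2-fold threshold left 4639 (2185 lower). In that limma fit 31 of the 33 genes were called lower and 1 higher, and those lower included the 7 that did not pass after TMM. Of the other cholesterol genes, 49 were lower and 1 higher with total counts, 62 and 0 by limma, and 15 and 4 at 2-fold. Their rises numbered 5 to 10 when 1 mouse was left out. *Pak4* was −1.54 with total counts, −1.19 by limma and −1.08 to −0.50 when 1 mouse was left out.

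The same-numbered mice did not deviate together (correlations −0.0051, −0.0391 and −0.0491). With the replicate block, 22 of the 33 genes were lower and 2 higher, 17 enzymes were lower, and 6 of the other cholesterol genes rose.

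Signs turned in genes that did not pass the test, and for *Por*. With total counts *Ggps1* was −0.71, *Mbtps2* −0.60 and *Nr1h3* −0.71, and by limma *Ggps1* was −1.13, *Mbtps2* −0.92, *Nr1h3* −1.36 and *Por* −0.063. *Scap*, *Abcg5* and *Nr1h2* were 0.0138, 0.017 and 0.0189 by DESeq2, 0.0139, 0.0171 and 0.0184 with its size factors alone. With upper-quartile scaling *Scap*, *Soat1*, *Abcg5*, *Abcg8* and *Nr1h2* were 0.0694, 0.0385, 0.0686, 0.0092 and 0.0674, with the filter at 1 CPM on average 0.0551, 0.0266, 0.0573, 0.0057 and 0.0557, and with protein-coding genes only 0.0523, 0.024, 0.0547, 0.002 and 0.0543. With gene length offsets *Scap*, *Soat1*, *Abca1*, *Abcg5*, *Abcg8* and *Nr1h2* were 0.1388, 0.1298, 0.165, 0.1003, 0.0697 and 0.0614. With the replicate block and offsets *Scap*, *Npc1*, *Soat1*, *Abca1*, *Abcg5* and *Nr1h2* were 0.1562, 0.0112, 0.1257, 0.1695, 0.1017 and 0.0721, and *Nr1h2* was 7e-04 with the block alone. When 1 mouse was left out, the ranges were *Scap* −0.19 to 0.19, *Soat1* −0.20 to 0.14, *Abcg5* −0.25 to 0.23, *Abcg8* −0.73 to 0.21 and *Nr1h2* −0.16 to 0.10. The cause of these changes was not tested. Few counts limit *Mvd* in LKO mice.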
